A study of Mesocricetus auratus with 8 samples.

Results

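The genes described here are 5 Kelch-like genes of striated muscle, Klhl31, Klhl24, Klhl38, Klhl41 and Klhl40, and Cul3, the cullin with which Kelch-like proteins assemble. They were taken by symbol, and the 6 rows are 6 of 20360 genes in the deposited count table. They were selected on their role and on earlier results of these libraries, in particular the wide CPM spread of Klhl31 over the 8 animals. Their spread between animals is therefore given as a description, with no test. The samples were hearts of 8 female golden hamsters (Mesocricetus auratus) killed at 25 weeks of age, before dilated cardiomyopathy sets in, 1 polyA RNA library per animal. Per the series design, some animals were wild type and others had undergone loss of heterozygosity at Myh6, which encodes the alpha isoform of cardiac myosin heavy chain. The labels call the animals M5F5 and M5F7, M5F12, M5F16, M5F19 and M5F22, and M5F55 and M5F56, without a genotype for any. Genotypes were therefore not compared, and the libraries are not replicates of each other.

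Kelch-like proteins are substrate adaptors. A BTB domain binds the scaffold protein Cul3, the Kelch repeats hold the target, and a small RING protein on the far end of Cul3 brings in the enzyme that carries ubiquitin. The complex is switched on when the ubiquitin-like protein Nedd8 is joined to the cullin and switched off when the COP9 signalosome removes it. Striated muscle has several adaptors of its own. Some are known to stabilise sarcomere proteins rather than to destroy them, and in people faults in KLHL40 or KLHL41 cause nemaline myopathy, a disease of the skeletal muscle thin filament.

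Library totals ran from 13608500 to 15255764 counts. Counts were scaled between libraries by the trimmed mean of M-values (TMM) and are given as CPM, counts scaled to a common library total, with exact 95% Poisson intervals where shown. These intervals cover counting error only, the reads carry no molecular identifiers, and differences of genotype are part of the spread between animals. Of the 6 genes, 6 passed a filter on low values, a mean of 50 or more counts per library, that 10909 genes also passed. Counts depend on transcript length, which was not available here, so the level of one gene is not compared with that of another. In whole hearts, fewer cells of a type and less RNA per cell cannot be told apart.

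The adaptors and their scaffold differed in how far they spread between hearts. Klhl31 spanned 7.40-fold between its highest and its lowest library, Klhl40 3.97-fold, Klhl38 2.13-fold, Klhl24 2.003-fold, Klhl41 1.74-fold and Cul3 1.09-fold, all on the log2 CPM scale with a prior count of 0.5. The median gene spanned 1.45-fold. A span of at least 2-fold was reached by 4 of the 6 genes (Klhl31, Klhl40, Klhl38 and Klhl24), against 13.9% of the 10909 genes. With the top and the bottom library of each gene set aside, a 2-fold span was left for 2 of the 6 (Klhl31 and Klhl40), against 2.85% of all genes. Since the members were chosen with these spreads known, nothing is read from these counts. The first count was 2 without M5F22, when Klhl24 spanned 1.81-fold and Klhl38 1.68-fold, and the second was 1 without M5F7 or without M5F55. Klhl24 lay at the 2-fold line itself and spanned 1.97-fold when plain total counts replaced TMM.

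**Figure D1:**
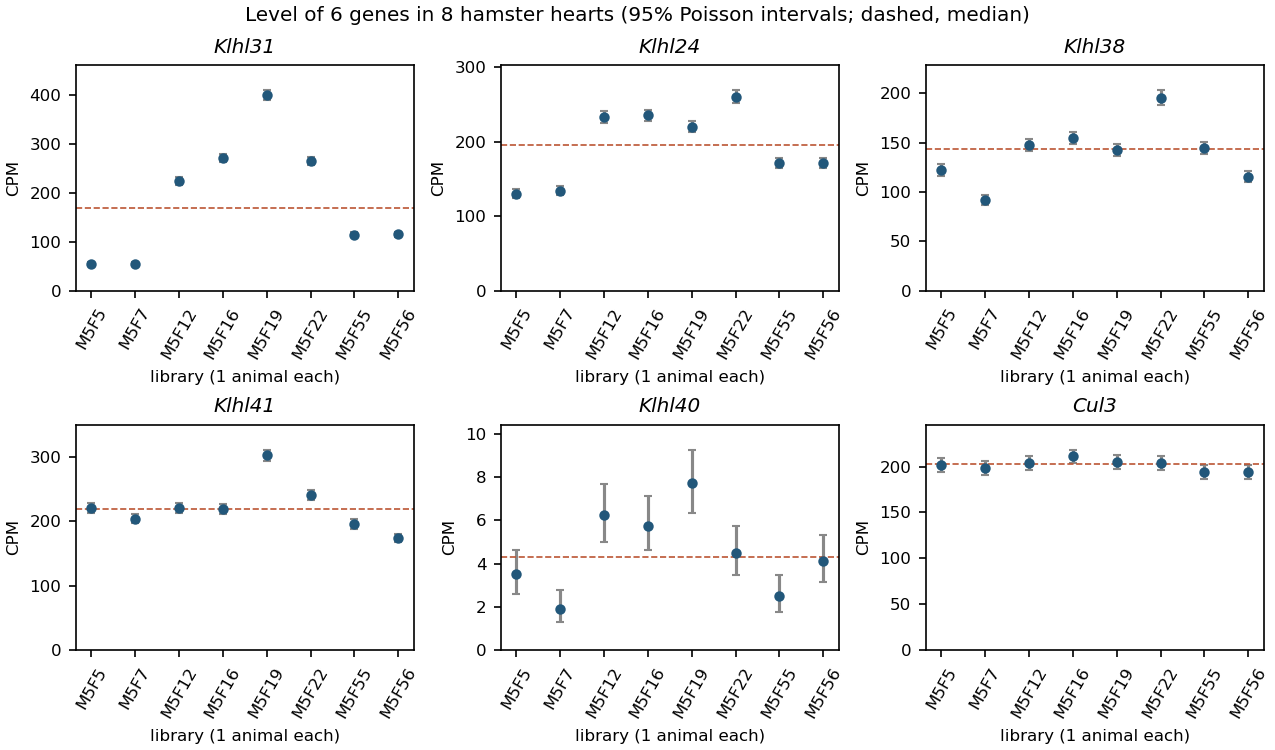
Level of each of the 6 genes in CPM (vertical axis, from 0) in each of the 8 libraries (horizontal axis, 1 animal each), with exact 95% Poisson intervals as bars and the median of the 8 as a dashed line. Klhl31 runs from 53.9 to 399 CPM, whereas Cul3 stays between 194 and 211 CPM.

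Klhl31 encodes a Kelch-like protein of heart and skeletal muscle, and mice without it develop a skeletal myopathy in which filamin C accumulates. It was at 399 CPM in M5F19 (95% Poisson interval 389 to 409), 271 in M5F16, 265 in M5F22 and 225 in M5F12. It was at 115 CPM in M5F56, 115 in M5F55, 55.1 in M5F7 and 53.9 in M5F5 (50.1 to 57.9). The steps between neighbouring libraries were uneven. M5F19 lay 1.47-fold above the next library, M5F12 lay 1.95-fold above M5F56, and M5F55 lay 2.08-fold above M5F7. The Poisson intervals of neighbours in this order overlapped for 3 of 7 steps, M5F16 with M5F22, M5F56 with M5F55 and M5F7 with M5F5. With M5F19 and M5F5 dropped, Klhl31 still spanned 4.92-fold, and 5 of the 10909 genes had a wider span by that measure.

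Klhl24 encodes an adaptor known in people for gain of stability through loss of its start codon, which causes skin fragility and a cardiomyopathy with loss of desmin. It was at 260 CPM in M5F22 (252 to 269), 235 in M5F16, 233 in M5F12 and 220 in M5F19. The other 4 libraries were lower, at 171 CPM in both M5F55 and M5F56, 134 in M5F7 and 130 in M5F5 (124 to 136). The 4 higher and the 4 lower libraries were the same as for Klhl31, although their order within the upper 4 differed. The steps at which the intervals did not overlap included the same breaks as in Klhl31, 1.28-fold from M5F19 down to M5F55 and 1.28-fold from M5F56 down to M5F7. A further break, of 1.11-fold, separated M5F22 from M5F16.

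Klhl38 encodes a less studied Kelch-like protein that is abundant in striated muscle. It was at 196 CPM in M5F22 (189 to 203), 155 in M5F16, 148 in M5F12, 145 in M5F55 and 143 in M5F19. It was at 122 CPM in M5F5, 115 in M5F56 and 91.9 in M5F7 (87.0 to 96.9). One library at each end carried most of this spread. With M5F22 and M5F7 dropped the span was 1.34-fold, close to the 1.25-fold of the median gene by the same measure. Unlike Klhl31 and Klhl24, Klhl38 had M5F55 among its 4 highest libraries and M5F19 below it, although the intervals of those neighbours overlapped.

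Klhl41, also called sarcosin, binds the thin filament ruler nebulin and stabilises it in skeletal muscle. It was at 302 CPM in M5F19 (293 to 311) and 240 in M5F22. The other 6 libraries lay between 174 CPM in M5F56 (167 to 181) and 221 CPM in M5F5. The intervals of neighbours overlapped at 4 of the 7 steps, those from M5F5 through M5F12, M5F16 and M5F7 to M5F55. M5F5, the lowest library for Klhl31 and Klhl24, was behind M5F19 and M5F22 the highest for Klhl41. Without M5F19 the span of Klhl41 was 1.38-fold in place of 1.74-fold.

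Klhl40, which like Klhl41 acts on the thin filament, stabilises nebulin and leiomodin 3 in skeletal muscle. It was scarce in these hearts, with 28 to 113 counts per library. It was at 7.71 CPM in M5F19 (6.36 to 9.28), 6.24 in M5F12, 5.76 in M5F16 and 4.51 in M5F22. It was at 4.13 CPM in M5F56, 3.50 in M5F5, 2.50 in M5F55 and 1.92 in M5F7 (1.27 to 2.77). The 4 higher libraries were again M5F12, M5F16, M5F19 and M5F22. At this depth the order within the gene is loose, since the intervals of neighbours overlapped at 7 of 7 steps. The fold between M5F19 and M5F7 had a 95% interval of 2.64 to 6.32 from counting error.

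Cul3 itself was nearly level. It was at 211 CPM in M5F16 (204 to 218), 205 in M5F19, 204 in both M5F12 and M5F22, 202 in M5F5, 199 in M5F7, 194 in M5F56 and 194 in M5F55 (187 to 201). The intervals of neighbours overlapped at 7 of 7 steps. Of the 10909 genes, 0.266% had a narrower span than Cul3. The number of Klhl31 counts per Cul3 count, a ratio that no scaling of libraries can move, was 0.267 in M5F5, 0.278 in M5F7, 0.591 in M5F55, 0.594 in M5F56, 1.10 in M5F12, 1.28 in M5F16, 1.30 in M5F22 and 1.95 in M5F19. That ratio spanned 7.29-fold. The corresponding ratios spanned 3.90-fold for Klhl40, 2.08-fold for Klhl38, 1.98-fold for Klhl24 and 1.65-fold for Klhl41.

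**Figure D2:**
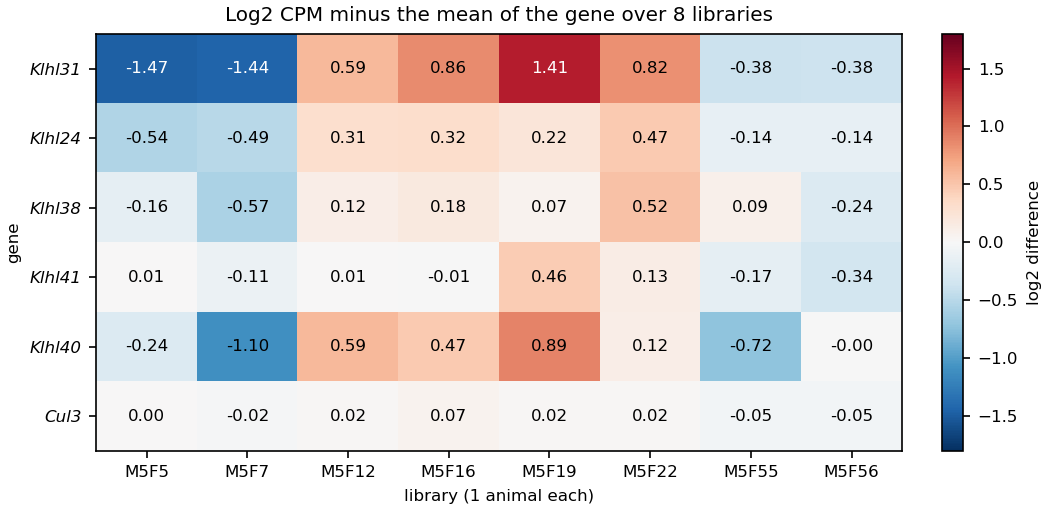
Log2 CPM of each gene (rows) in each library (columns, 1 animal each) minus the mean of that gene over the 8 libraries, with the value printed in each cell and shown by colour. Klhl31 and Klhl24 are above their mean in M5F12, M5F16, M5F19 and M5F22 and below it in the other 4, and Cul3 stays within 0.07 of its mean.

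The order of the libraries was compared between genes by counting, out of the 28 pairs of libraries, those that both genes put in the same order. The median over all other genes was 14 of 28 for each of the 6. Klhl24 and Klhl38 put 25 of 28 pairs in the same order, Klhl31 and Klhl40 24, and Klhl31 and Klhl24 23. A count of at least 25 with Klhl24 was reached by 2.56% of the other genes, of at least 24 with Klhl31 by 9.15%, and of at least 23 with Klhl31 by 13.1%. Klhl41 shared the fewest pairs in sum, from 17 pairs with Klhl24 to 21 with Cul3. Cul3 shared 23 pairs with Klhl40 and 21 with Klhl31, over steps within its own counting error. M5F12, M5F16, M5F19 and M5F22, the 4 highest libraries of Klhl31, were also the 4 highest of Klhl24, Klhl40 and Cul3, an order looked for after the Klhl31 values were seen. Across the genome 10.5% of the genes had these 4 libraries highest and 7.19% had them lowest, so the order is shared by many genes and is not particular to Kelch-like ones. The summed endothelial markers were lowest in the same 4 libraries. The 4 are consecutive in the numbering of the animals, between the pair M5F5 and M5F7 and the pair M5F55 and M5F56. What the numbers stand for, and what else these animals have in common, is not given in the labels, and its part in the order was not tested.

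The genes most like Klhl31 in the order of the libraries included 24 of 10908 that put 28 of 28 pairs in the same order. The nearest in size of change was LOC106022765, an identifier with no name in the tables used here, at 4.93 CPM in M5F5 and 33.7 in M5F19. Cacna2d1, an auxiliary subunit of voltage-gated calcium channels, was at 41.5 CPM in M5F5, 46.9 in M5F7, 64.8 in M5F55, 69.6 in M5F56, 103 in M5F12, 123 in both M5F22 and M5F16 and 135 in M5F19. Map1b, a microtubule-associated protein, ran from 17.6 to 69.5 CPM between M5F5 and M5F19. Ppp1r3b, which targets protein phosphatase 1 to glycogen, ran from 35.4 to 106 CPM between the same libraries, and Irgq, of the immunity-related GTPase family, from 2.64 to 8.81 CPM. For Klhl40 the genes most alike were Gpn2 and Bysl, with 28 of 28 pairs, and Ranbp10, Tiam1 and Slc43a2 with 27. Of the other genes, 0.174% reached at least 27 pairs with Klhl40. The intervals of Klhl40 overlapped at 7 of 7 steps, so these matches are to an order that counting error leaves loose. The order of Bysl was loose too, with 216 counts in both M5F55 and M5F56 and 223 in M5F22. Gpn2, a GPN-loop GTPase, spanned 1.73-fold and Bysl, a factor of small ribosomal subunit assembly, 1.36-fold, less than the 3.97-fold of Klhl40. Tiam1, an activator of Rac, lay between 6.37 CPM in M5F7 and 22.9 in M5F19, a span of 3.58-fold.

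Gene neighbours in RefSeq's table of assembly BCM_Maur_2.0 bear on 3 of the genes. The nearest protein-coding neighbour of Klhl38 on one side is Fbxo32, which encodes atrogin-1, the F-box adaptor of a cullin ligase that acts in muscle wasting. Fbxo32 was at 241 CPM in M5F22, 189 in M5F12, 185 in M5F16, 144 in M5F55, 127 in M5F56, 118 in M5F19, 89.4 in M5F5 and 53.5 in M5F7. Klhl38 and Fbxo32 were thus both highest in M5F22 and lowest in M5F7, and put 25 of 28 pairs in the same order, a count that 1.03% of the other genes reached with Klhl38. The span of Fbxo32, 4.50-fold, was wider than the 2.13-fold of Klhl38. On the other side Anxa13, an annexin, was at 0.763 CPM or less.

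Klhl40 overlaps Hhatl, a relative of hedgehog acyltransferase, in that gene table. Hhatl was at 78.6 CPM in M5F22, 73.7 in M5F19, 71.1 in M5F16, 67.0 in M5F12, 61.6 in M5F55, 60.7 in M5F56, 60.1 in M5F5 and 57.0 in M5F7. It was highest in the same 4 libraries as Klhl40, with 22 of 28 pairs in the same order, a count that 13.8% of the other genes reached with Klhl40. Hhatl spanned 1.38-fold. Zbtb47, the neighbour on the other side, does not overlap Klhl40 and shared 23 pairs with it over the same span of 1.38-fold. At least 23 pairs with Klhl40 were shared by 9.23% of the other genes. The sources used here do not state whether counting used strand. Reads of Hhatl and of Klhl40 may therefore not be fully told apart, and the Klhl40 counts are uncertain to that extent. Klhl31 overlaps a long non-coding RNA, LOC121137558, which has no row among the counts, so reads from it could have been counted as Klhl31. Of the protein-coding genes on either side of Klhl31, Lrrc1 shared 17 of 28 pairs with it and spanned 2.14-fold. Gclc, the catalytic subunit of glutathione synthesis, shared 21 and spanned 1.33-fold. At least 21 pairs with Klhl31 were shared by 21.2% of the other genes.

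**Figure D3:**
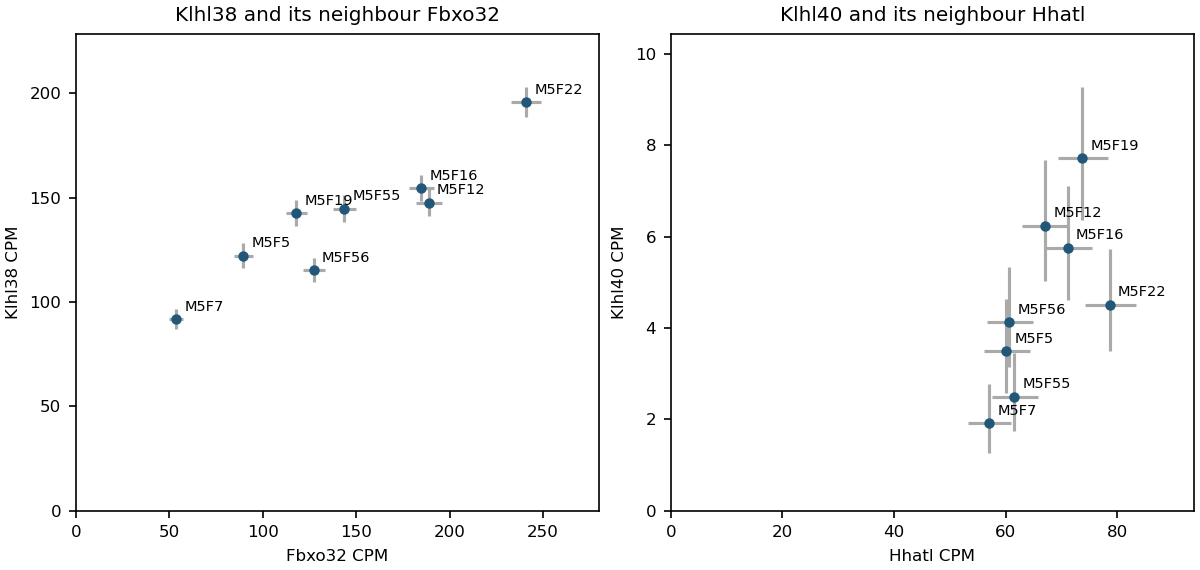
Left, Klhl38 against its neighbour Fbxo32; right, Klhl40 against the overlapping gene Hhatl, both axes in CPM from 0, 1 point per library with 95% Poisson intervals as bars. Klhl38 and Fbxo32 both run from M5F7 at the low end to M5F22 at the high end, and Hhatl varies from 57.0 to 78.6 CPM while Klhl40 varies from 1.92 to 7.71 CPM.

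Among the other Kelch-like genes, spans as wide as that of Klhl31 were not seen. Of 38 genes of the Klhl and Kbtbd families and related Kelch genes that passed the filter, these 5 included, Klhl31 was in place 1 by span, Klhl40 in place 3, Klhl38 in place 6, Klhl24 in place 9 and Klhl41 in place 18. In place 2 was Kbtbd13, another muscle Kelch gene in which faults cause nemaline myopathy in people. It was at 7.43 CPM in M5F56, 5.76 in M5F16, 4.71 in M5F12, 3.28 in M5F22, 3.07 in M5F19, 2.43 in M5F55, 1.86 in M5F5 and 1.30 in M5F7. Its highest library, M5F56, was 1 of the lower 4 for Klhl31. Kbtbd13 was scarce, with 19 to 106 counts per library. Its 95% Poisson interval in M5F56 (6.08 to 8.98 CPM) overlapped that in M5F16 (4.61 to 7.105 CPM). Of the 27 other Klhl-list genes measured, 4 spanned 2-fold (Klhl33, Klhl21, Klhl6 and Klhl32), near the 13.9% of all genes. Of these, Klhl6 had only 33 to 66 counts per library and Klhl32 only 41 to 83. The median span of the 27 was 1.48-fold, near the 1.45-fold of all genes, and 0 of them kept a 2-fold span with the extremes set aside. In 4 of the 27 (Klhl21, Klhl33, Klhl9 and Klhl18) the 4 highest libraries were those of Klhl31, against 10.5% of all genes. In 1 of the 27 (Klhl5) these were the 4 lowest, against 7.19% of all genes. Klhl20 spanned 1.99-fold, with 21 of 28 pairs in the order of Klhl31, and Klhl17 spanned 1.88-fold, with 8. Klhl21, an adaptor that acts in cell division, lay between 94.2 CPM in M5F7 and 220 in M5F19. It put 23 of 28 pairs in the order of Klhl31, and 13.1% of the other genes reached at least that count. Kbtbd12, of unsettled function, lay between 20.7 CPM in M5F5 and 39.3 in M5F19. It put 27 of 28 pairs in the order of Klhl31, a count that 1.17% of the other genes reached. Keap1, the sensor of oxidative stress, spanned 1.18-fold, and Klhl12, which acts in collagen export, 1.15-fold.

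Of 15 measured genes listed for cullin ligases and their Nedd8 switch, not all specific to Cul3, 2 spanned 2-fold (Cand1 and Dcun1d3). That share was near the 13.9% of all genes. The median span of the 15 was 1.32-fold, against 1.45-fold for all genes. Rbx1, the RING partner of Cul3, stayed between 67.5 and 81.6 CPM, Nedd8 between 55.4 and 73.2, and Uba3, of the Nedd8-activating enzyme, between 99.2 and 110 CPM. Ube2m, which passes Nedd8 to cullins, spanned 1.21-fold, and Dcun1d1, a Nedd8 ligase cofactor, 1.36-fold. Cand1, which exchanges adaptors on cullins and was studied mainly on Cul1, was at 12.8 CPM in M5F16, 11.3 in M5F12, 10.2 in M5F22, 9.29 in M5F19, 7.57 in M5F55, 6.59 in M5F56, 5.41 in M5F7 and 5.28 in M5F5. Its 4 highest libraries were those of Klhl31 and Klhl24, 1 of the 15 genes, against 10.5% of all genes. Dcun1d5 had its 4 lowest there, also 1 of the 15, against 7.19% of all genes. The muscle-enriched relative Cand2 had another order, from 39.8 CPM in M5F56 to 72.2 in M5F19. Dcun1d2, also a Nedd8 ligase cofactor, ran from 82.5 to 128 CPM. It put 26 of 28 pairs in the order of Klhl31, and 3.14% of the other genes reached at least that count. None of the 8 measured COP9 signalosome genes (0) and none of the 7 other cullins (0) spanned 2-fold, with medians of 1.17-fold and 1.27-fold. Cops5, the catalytic subunit of the signalosome, spanned 1.14-fold, and Cops2 1.17-fold. Cul1 spanned 1.12-fold and Cul5 1.22-fold, whereas Cul4a spanned 1.85-fold and Cul4b 1.63-fold. The 4 highest libraries of Cul2, Cul4a and Cul4b were those of Klhl31, 3 of the 7, against 10.5% of all genes.

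**Figure D4:**
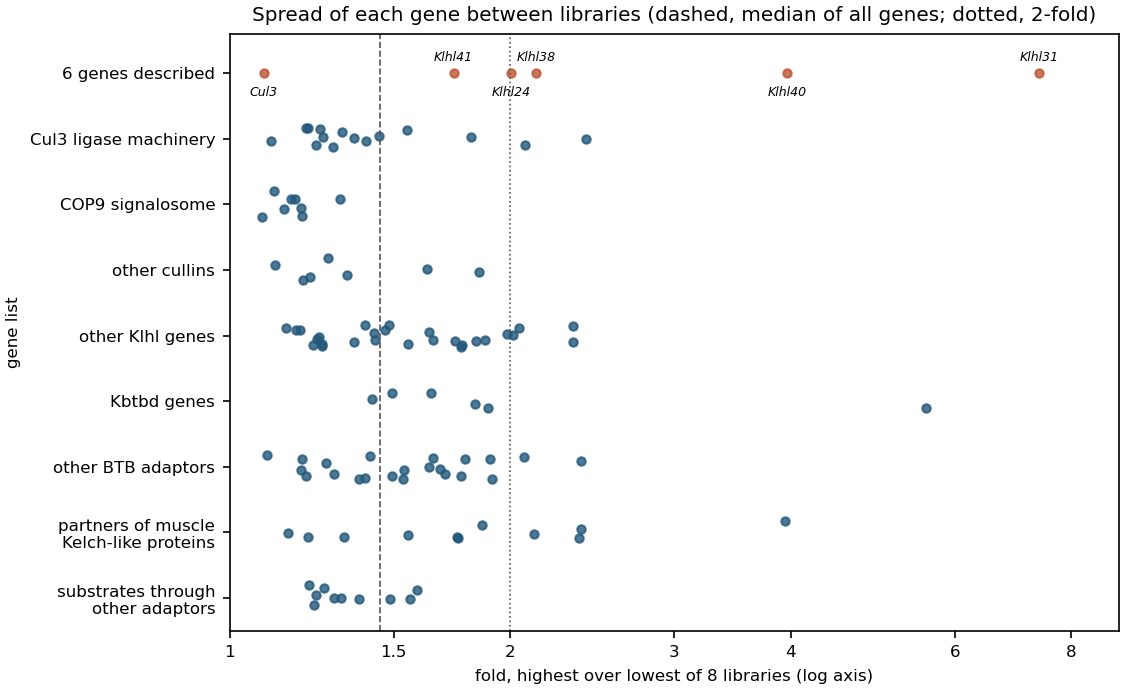
Fold between the highest and the lowest of the 8 libraries (horizontal, log axis) for the 6 genes described (orange) and for the measured genes of 8 lists (blue, 1 point per gene, scattered vertically for legibility), with the median of all genes, 1.45-fold, as a dashed line and 2-fold as a dotted line. Klhl31 lies to the right of every other gene plotted, followed by Kbtbd13 at 5.58-fold, and Cul3 lies near the left edge at 1.09-fold.

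Known or possible adaptors of Cul3 from other BTB families were measured for 22 genes, with a median span of 1.54-fold. Of these, 2 spanned 2-fold, Rhobtb3 and Rhobtb2, against 13.9% of all genes. With the extremes set aside, 0 of the 22 did. Rhobtb3 was lowest in M5F5, at 32.7 CPM, and highest in M5F19, at 78.0 CPM. Spop, an adaptor of nuclear targets, lay between 19.4 CPM in M5F5 and 32.6 in M5F22. Both genes had the 4 highest libraries of Klhl31, as did 4 of the 22 in all, against 10.5% of all genes. These were the 4 lowest libraries for 2 of the 22, Kctd10 and Kctd17, against 7.19% of all genes. Kctd10, an adaptor for small GTPases, was lowest in M5F16, at 50.6 CPM, and highest in M5F7, at 77.9 CPM. It put 2 of 28 pairs in the order of Klhl31, and 116 of 10908 other genes had 2 or fewer. Kctd2 and Kctd7 spanned 1.90-fold and 1.91-fold, with 14 and 15 pairs, and Btbd2 1.27-fold, with 19. Btbd1 spanned 1.10-fold. Of 10 measured genes listed as known or possible substrates of Cul3 through other adaptors, 0 spanned 2-fold, the median being 1.31-fold. Nfe2l1, a transcription factor that responds to proteotoxic stress, had 622 CPM in M5F7 and 988 in M5F12, and Rhoa, a target of Kctd adaptors, lay between 214 CPM in M5F22 and 270 in M5F7.

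Of 11 measured genes whose proteins are partners or neighbours of the muscle Kelch-like proteins in the sarcomere, 4 spanned 2-fold (Flnc, Xirp1, Lmod3 and Lmod2), against 13.9% of all genes, with a median of 1.76-fold. With the extremes set aside 0 of the 11 did, against 2.85% of all genes. Flnc, the filamin of muscle that Klhl31 acts on in mice, was at 891 CPM in M5F19, 487 in M5F16, 440 in M5F12, 420 in M5F22, 359 in M5F55, 341 in M5F7, 277 in M5F5 and 226 in M5F56. Its 4 highest libraries were those of Klhl31, as in 2 of the 11 genes, against 10.5% of all genes. Flnc and Klhl31 put 24 of 28 pairs of libraries in the same order, and 9.15% of the other genes reached at least that count with Klhl31. Lmod3, the leiomodin that Klhl40 stabilises in skeletal muscle, lay between 34.2 CPM in M5F7 and 81.1 in M5F19, the lowest and the highest library of Klhl40 as well. Elsewhere they differed, since Lmod3 was at 78.1 CPM in M5F55, its next highest library, where Klhl40 was at 2.50 CPM. M5F7 was the lowest library of 309 and M5F19 the highest of 313 of the 1520 genes that spanned 2-fold, and M5F7 was also the highest of 313. Neb, the gene of nebulin, was at 0.206 to 0.857 CPM, below the filter. Its cardiac relative Nebl lay between 1054 CPM in M5F7 and 1854 in M5F16 and also had the 4 highest libraries of Klhl31. Des, the desmin gene, lay between 1005 CPM in M5F56 and 1763 in M5F19, with 15 of 28 pairs in the order of Klhl31. Xirp2 spanned 1.55-fold and Ldb3 1.33-fold, with 12 and 19 pairs.

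Markers of the cells in the heart were read beside these orders. The 8 cardiomyocyte markers summed to 49680 CPM in M5F12 at the lowest and 63230 CPM in M5F5 at the highest, so M5F5, the lowest library for Klhl31, had the highest sum. Most of that sum was Myl2, Tnnt2, Actc1 and Myl3. Ryr2, the calcium release channel, went the other way, with 1128 CPM in M5F5 and 1636 in M5F19. It put 27 of 28 pairs in the order of Klhl31, and 1.17% of the other genes reached at least that count. Of the 8 markers, 1 (Ryr2) had the 4 highest libraries of Klhl31, against 10.5% of all genes. The rest shared from 4 pairs (Tnni3) to 18 (Mybpc3, also highest in M5F19). Of the skeletal muscle markers, 14 in all, none passed the filter, and Cacna1s, Myog, Myf6 and Pax7 had 0 counts in every library. The skeletal sum was 1.91 to 3.96 CPM, lowest in M5F19, where Klhl31, Klhl41 and Klhl40 were highest, and Atp2a1 made up most of it. Endothelial markers moved against Klhl31. Their sum of 6 genes was 1224 CPM in M5F7, 1114 in M5F5, 1052 in M5F55, 970 in M5F56, 818 in M5F12, 791 in M5F22, 782 in M5F16 and 764 in M5F19. Of the 6, 4 (Cdh5, Kdr, Tie1 and Tek) had their 4 lowest libraries where Klhl31 was highest, against 7.19% of all genes, and none was at 0. Pecam1 and Emcn did not, with 7 and 6 of 28 pairs in the order of Klhl31. Pecam1 was at 209 CPM in M5F12 and 195 in M5F5, and Emcn at 62.5 CPM in M5F12 and 60.7 in M5F7. The part of endothelial markers in the order of Klhl31, Klhl24 and Klhl40 was not tested. Sums over the other lists spanned 1.23-fold for fibroblasts, 1.41-fold for smooth muscle and pericytes and 2.05-fold for macrophages, with lowest libraries M5F55, M5F22 and M5F5. Within the smooth muscle and pericyte list, Rgs5 and Pdgfrb had their 4 lowest libraries where Klhl31 was highest, 2 of 6 genes, against 7.19% of all genes. The rest of that list did not share this order. Acta2, Cnn1, Tagln and Myh11 put 19, 16, 14 and 12 of 28 pairs in the order of Klhl31. Acta2 was lowest in M5F5, at 330 CPM, and highest in M5F19, at 572 CPM. Rgs5, a pericyte gene, was at 996 CPM in M5F7 and 579 CPM in M5F16, with 3 of 28 pairs in the order of Klhl31, and Pdgfrb had 4. Their part in the order of Klhl31 was not tested either. The sum of 5 atrial markers spanned 12.6-fold, from 79.6 CPM in M5F12 to 1000 in M5F5. Nppa made up most of it, with 53.2 CPM in M5F12 and 971 in M5F5. The other atrial markers with counts did not share this span. Myl4 was at 5.43 CPM in M5F5 and highest in M5F19, at 7.51 CPM. Nr2f2 spanned 1.43-fold, and Sln, below the filter, was lowest in M5F5, at 0.143 CPM. Bmp10 was at 0 throughout, and Myl7, also on the list, had no row among the counts.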

How the data were processed

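The authors deposited 1 table of counts, whole numbers per gene and library, for the hearts of 8 hamsters, and it was read as not normalized. HISAT2 2.0.4, Bowtie2 2.2.5 and RSEM are named, with no role, per the submitters' processing notes. Not given in the sources used here are the genome build, the annotation and any rounding of RSEM estimates. All 8 columns matched a label and 0 were unused.

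Counts were scaled by TMM (edgeR 4.0.16, R 4.3.3; factors 0.960 to 1.05). Log2 CPM used a prior count of 0.5. Spread was examined in the 10909 genes with 50 or more counts per library on average, and the calculation was tested on simulated data. No test was run, since no animal has a labelled group. The floor of a library, 3 counts, is 0.199 to 0.214 CPM. Alternatives were DESeq2 1.42.0 size factors, total counts, a prior count of 5, other filters and leaving out each library.

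The members and 15 gene lists were chosen with earlier results of these data known. The rule for names took the 6 members, the 4 most abundant and the 4 with the widest trimmed span of each list, and the 5 most like each member with a trimmed span of 2-fold. Not all genes the rule took from the lists are named in the text, and those left out were left out with their values known. Neighbouring genes, genes that make up a count of 5 or fewer, and some others of the lists (Keap1, Klhl12, Kbtbd12, Cul1 and the like) were named after their values were seen. Of the list genes, 5 were found through the RefSeq gene table of BCM_Maur_2.0, used for names and neighbours.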

Additional observations from a re-analysis of the deposited data

How the results depend on the processing

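Of 125 values recomputed under an alternative, 108 stayed within counting error (spans) or within 1.5 times (counts) and 17 did not. A gene's span cannot change when the library left out is neither its highest nor its lowest. Many of the 108 were therefore fixed in advance and say nothing about stability. Total counts moved Klhl41 to 1.59-fold. Leaving out each library in turn gave 5.02 to 7.40-fold for Klhl31, 1.81 to 2.003 for Klhl24, 1.68 to 2.13 for Klhl38, 1.38 to 1.74 for Klhl41 and 4.86 to 7.29 for the Klhl31 to Cul3 count ratio, with the lowest value without M5F19 (Klhl31, Klhl41 and the ratio) or M5F22 (Klhl24 and Klhl38). The number of members spanning 2-fold was 2 to 4, and after the extremes were dropped 1 to 2. With 1 library fewer a span can stay or narrow but, by construction, cannot widen. Cul3 stayed between 1.05-fold and 1.10-fold throughout, and Klhl40 between 3.06-fold and 4.01-fold. Klhl24, Klhl40 and Cul3, or 4 genes with Klhl31 itself, which matches by definition, had the 4 highest libraries of Klhl31 by TMM, and the count was 4 under the other scalings and with a prior count of 5, alternatives chosen after seeing the data. The steps between neighbouring libraries of Cul3 lie within counting error. Over all genes, 1520 spanned 2-fold, against 324 where the mean count was 500 or more and 7109 with no filter. After the extremes were dropped there were 311, against 86 and 3893, and 169 without M5F5 and 143 without M5F7. The scalings shifted the median gene of a library by -0.059 to 0.069 on the log2 scale. Depth limits Klhl40 most. No paired analysis was possible because no library has a group.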

Other observations

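Klhl31 and Klhl24 shared 2 breaks in the order of the libraries. Each had further steps apart in counting error, 4 in all for Klhl31 and 3 for Klhl24. The shared breaks fell between blocks of the animal numbering. What the numbering stands for is not given in the labels, and its part was not tested. How many other genes have both breaks was not counted. Klhl31 was at 225 to 399 CPM in M5F12, M5F16, M5F19 and M5F22, at 115 CPM in M5F55 and M5F56, and at 53.9 and 55.1 CPM in M5F5 and M5F7. Klhl24 was at 220 to 260 CPM, 171 CPM, and 130 and 134 CPM in the same libraries. Across all genes examined, 1144 of 10909 had M5F12, M5F16, M5F19 and M5F22 as their 4 highest libraries, 784 had them as their 4 lowest, and 106 of the former also kept a 2-fold span after the extremes were dropped.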
